A study of Mus musculus with 2 samples.

Results

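Major histocompatibility complex (MHC) class II presentation was described from 7 genes, Cd74, H2-Aa, H2-Ab1, H2-Eb1, H2-DMa, H2-DMb1 and Ciita, of 19831 genes measured in tumour endothelial cells. The genes were chosen by name, as the class II presentation genes, and all 7 were present in both tables. The study compared 1 library titled control with 1 titled NF2 KO, both of adult c57bl/6 mice and both of cells picked by flow cytometry for CD31, the endothelial adhesion molecule encoded by Pecam1. Single cells were sequenced by a droplet method that reads the 3′ ends of transcripts and counts molecules by unique molecular identifiers (UMIs). No source used here gives the tumour type, the number of mice, the deleted stretch of Nf2 or the cells in which it was deleted. Nf2, the gene of the protein merlin, stood at 21.9 counts per 10⁶ UMIs (CPM) in control cells and at 20.2 CPM in NF2 KO cells. Tags from the 3′ end need not lie in a deleted stretch, so the labels could not be checked by it.

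Class II molecules present peptides taken up from outside the cell to CD4+ T cells. An α and a β chain, here the products of H2-Aa and H2-Ab1, assemble on the invariant chain, the product of Cd74. The invariant chain blocks the groove until it is cut in the endosome. H2-Eb1 encodes a further β chain, whose α partner is not among the listed genes, so its RNA is not read as a complete molecule. The H2-DMa and H2-DMb1 products help to exchange the last fragment of the invariant chain for peptide. Ciita encodes the coactivator that class II promoters depend on, and endothelial cells, which are not professional presenting cells, are known to switch the pathway on in response to interferon-γ.

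In GENCODE release M21 on the GRCm38 build, 5 of the genes lie together in the MHC of chromosome 17. They follow each other as H2-DMa (chr17:34119541-34139101), H2-DMb1 (chr17:34153072-34160230), H2-Ab1 (chr17:34257689-34269419), H2-Aa (chr17:34282744-34287823) and H2-Eb1 (chr17:34305867-34316674), and of these only H2-Aa is on the minus strand. Ciita lies on the plus strand of another chromosome (chr16:10480059-10528418). Genes of the tables that overlap a member are Brd2 at H2-DMa, Dexi at Ciita and the antisense gene Gm20513 at H2-Eb1. Gm20513 held 3 UMIs in the control and 2 in the NF2 KO library. H2-DMb1 has a close copy, H2-DMb2, with 8 and 2 UMIs. Reads of such a pair may not be told apart, so the H2-DMb1 level is uncertain to a degree that these counts do not give.

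Class II promoters are known for a shared module whose X and Y boxes are bound by the RFX and NF-Y factors, and the promoters of 3 members are printed because they carry matching letters at like spacing. They are RefSeq promoter windows of GRCm38.p6, each of 300 bases, for which 4 of the 7 members had an entry. Capitals mark an X-like match (CTNGNAACT) and a Y-like match (TGATTGG), letters that were chosen after these promoters had been read.
H2-Aa, chr17:34287774-34288073, minus strand: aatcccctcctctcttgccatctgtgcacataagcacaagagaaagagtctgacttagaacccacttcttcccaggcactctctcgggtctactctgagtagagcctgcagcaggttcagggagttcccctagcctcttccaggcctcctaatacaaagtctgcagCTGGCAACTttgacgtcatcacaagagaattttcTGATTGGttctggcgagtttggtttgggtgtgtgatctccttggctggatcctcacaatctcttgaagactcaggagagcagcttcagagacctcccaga
H2-Eb1, chr17:34305617-34305916, plus strand: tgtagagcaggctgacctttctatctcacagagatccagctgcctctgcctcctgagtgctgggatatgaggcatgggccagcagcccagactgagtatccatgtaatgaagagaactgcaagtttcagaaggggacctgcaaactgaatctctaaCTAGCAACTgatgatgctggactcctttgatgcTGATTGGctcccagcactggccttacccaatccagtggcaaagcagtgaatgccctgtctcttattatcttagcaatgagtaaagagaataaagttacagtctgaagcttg
H2-DMb1, chr17:34152941-34153240, plus strand: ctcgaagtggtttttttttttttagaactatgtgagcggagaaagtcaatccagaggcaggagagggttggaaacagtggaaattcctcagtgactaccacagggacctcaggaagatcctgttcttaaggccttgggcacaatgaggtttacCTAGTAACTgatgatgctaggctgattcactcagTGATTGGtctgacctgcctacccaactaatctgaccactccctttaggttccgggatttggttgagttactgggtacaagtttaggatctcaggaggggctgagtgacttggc

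The bases between the matches number 25 in H2-Aa, 24 in H2-Eb1 and 25 in H2-DMb1. On either strand, the X-like letters occurred in 4.10% and the Y-like letters in 7.80% of all 32544 promoter windows of different sequence, with no overlap between the motifs. Both on the same strand, with 5 to 35 bases between them, occurred in 5 windows (0.0154%). These belonged to H2-DMb1, H2-Aa, H2-Eb1, the chromosome 17 neighbour BC051142 and 1700048F04Rik of chromosome 5. Neither of the H2-DMa windows held a match.

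Of the deposited cells, 1544 of 2826 control cells and 2745 of 3368 NF2 KO cells were retained after clusters of shallow cells or of cells led by leukocyte genes had been left out. The median retained cell held 16838 UMIs in the control and 17133 in the NF2 KO library. Each library came in 2 runs, marked by a prefix of the cell barcode whose meaning the labels do not state, with 926 and 618 retained control cells and 1114 and 1631 retained NF2 KO cells. Any 2 of the 4 runs shared at most 1 cell barcode. The runs are parts of 1 sample and not replicates, so there is no test between the conditions, and every interval in brackets is a 95% interval that covers counting error only. Pecam1 and Cdh5, defining markers of endothelium, had a UMI in 96.8% and 96.7% of the retained control cells and in 99.2% and 98.9% of the NF2 KO cells.

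All 7 class II genes were lower in the NF2 KO library. Summed over the 7, the level was 706 CPM (697 to 716) for control cells against 224 CPM (220 to 228) for NF2 KO cells, 3.16-fold lower (3.09 to 3.23). The control runs stood at 693 and 719 CPM and the NF2 KO runs at 104 and 289 CPM. Both NF2 KO runs thus lay below both control runs, as they did for 37.6% of the 5836 genes with a mean of at least 20 CPM, while they lay above both for 27.6%. The NF2 KO runs differed 2.77-fold (2.64 to 2.91) from each other, whereas the control runs differed 1.04-fold (1.01 to 1.07).

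Cd74, the invariant chain gene (chr18:60803848-60812652, plus strand), gave 58.8% of the class II UMIs in the control library. It measured 408 and 422 CPM in the control runs against 41.9 and 147 CPM in the NF2 KO runs, and over the libraries it was 3.79-fold lower (3.67 to 3.91). The α chain gene H2-Aa measured 57.5 and 56.6 CPM against 7.18 and 23.9 CPM, 3.17-fold lower (2.93 to 3.44). Of the β chain genes, H2-Eb1 measured 58.6 and 55.5 CPM against 6.32 and 18.5 CPM, the largest fold of the 7 at 4.0 (3.67 to 4.37). H2-Ab1, the other β chain gene, had the smallest, with 119 and 128 CPM against 37.1 and 72.9 CPM, 2.05-fold lower (1.96 to 2.15). For each of these chain genes the 2 control runs lay close together and above both NF2 KO runs, and run 1 of the NF2 KO library was the lowest of the 4.

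The genes of peptide exchange and of the coactivator had the same order of runs at lower levels. H2-DMb1 measured 26.4 and 31.1 CPM in the control runs against 6.48 and 16.1 CPM in the NF2 KO runs, 2.27-fold lower (2.05 to 2.52). H2-DMa measured 16.7 and 18.4 CPM against 3.70 and 7.33 CPM, 2.91-fold lower (2.52 to 3.35). Ciita, with 197 UMIs in the control and 142 in the NF2 KO library, measured 6.78 and 6.67 CPM against 1.61 and 3.27 CPM, 2.51-fold lower (2.01 to 3.13).

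**Figure D1:**
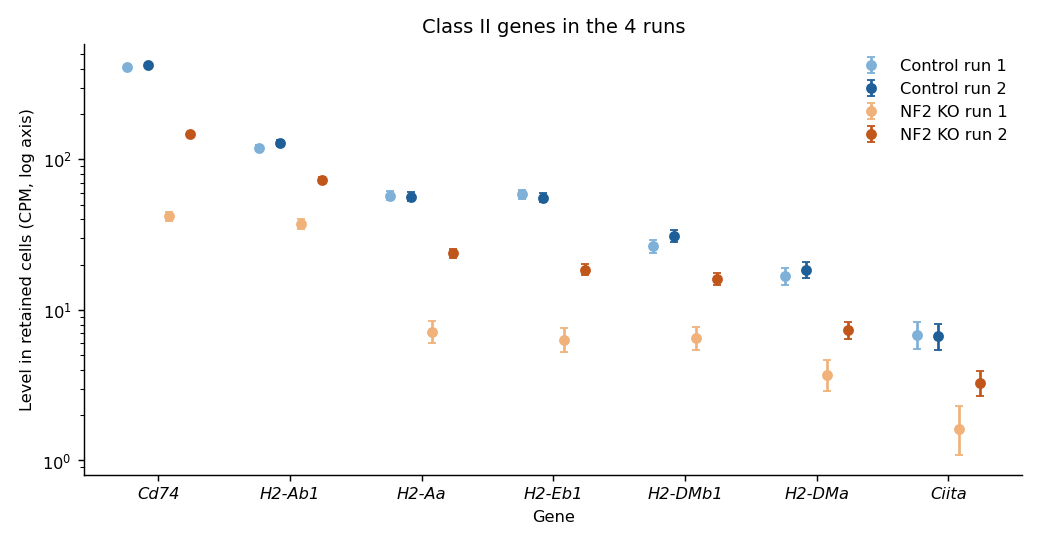
Level of each class II gene in the retained cells of each run, in CPM on a log axis; points are runs and bars are 95% Poisson intervals for counting error. Both control runs lie above both NF2 KO runs for all 7 genes, as they do for 37.6% of the 5836 genes with a mean of at least 20 CPM. NF2 KO run 1 is the lowest of the 4 runs for each of the 7, as for Cd74 at 41.9 CPM against 147 CPM in run 2.

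With 1 library per group, a rule of size stood in for a test. It asked for a ratio of at least 1.5 in either direction, an interval that excluded 1 and a mean of at least 20 CPM. Of all 5836 genes that reached this mean, 5.36% were lower and 2.83% higher in the NF2 KO library. H2-DMa and Ciita did not reach it, and the other 5 members were all lower. The median log2 ratio of the 7 members was -1.54, and that of the 5836 genes was -0.03. Between the NF2 KO runs, 0.88% of 5797 genes were higher and 0.293% lower in run 2 than in run 1. The 2 members that reached 20 CPM there were both higher in run 2, Cd74 by 3.50-fold (3.24 to 3.78) and H2-Ab1 by 1.97-fold (1.81 to 2.14).

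The share of positive cells and the level per positive cell were both lower in the NF2 KO library. To set cells of unequal depth side by side, each cell was thinned to 5000 UMIs, which left out 289 control cells, 271 of them of run 1, and 133 NF2 KO cells. At this depth 47.7% (44.9 to 50.5) of the control cells and 30.2% (28.4 to 32.0) of the NF2 KO cells held at least 1 class II UMI. By run the shares were 44.1% and 51.7% in the control and 20.7% and 36.6% in the NF2 KO library. A positive cell held 8.0 class II UMIs on average in the control (8.27 and 7.74 by run) and 3.44 in the NF2 KO library (2.34 and 3.86 by run). Without thinning the shares were 66.9% and 50.5%.

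By gene, Cd74 was found in 32.3% of the thinned control cells and 15.2% of the NF2 KO cells, with 6.98 and 3.31 UMIs per positive cell. H2-Ab1 was found in 30.6% and 18.0%, with 2.07 and 1.67 UMIs. H2-Aa had 15.8% and 5.25%, H2-Eb1 15.9% and 4.44%, and either gene about 2 UMIs per positive control cell (2.02 and 1.99) against 1.44 and 1.45. For H2-DMb1 (11.7% and 4.13%), H2-DMa (7.81% and 2.95%) and Ciita (3.35% and 1.11%), a positive cell held 1.12 to 1.32 UMIs in either library, so that at this depth their level per positive cell was close to the smallest possible value and the share carried the difference.

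**Figure D2:**
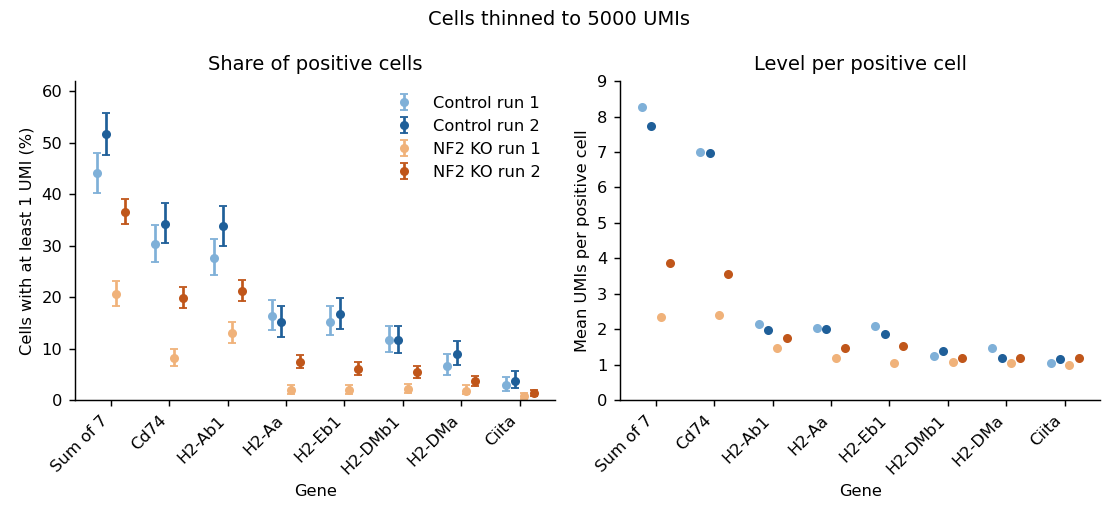
Left, share of retained cells with at least 1 UMI of each gene, in percent with 95% Clopper-Pearson intervals; right, mean UMIs in the positive cells; points are the 4 runs and cells were thinned to 5000 UMIs. The sum and Cd74 separate the libraries in both panels, whereas Ciita and the H2-DM genes stay near 1 UMI per positive cell.

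A share of cells with 1 UMI can hold RNA that was free in the droplets. Thinned to 1000 UMIs, at which shallow cells can be compared too, 27.8% (25.6 to 30.2) of the retained control cells had a class II UMI (median depth before thinning 16838). In left-out cluster 3 of the control, led by the neutrophil genes S100a9 and S100a8 at a median depth of 1634 UMIs, the share was 30% (26.1 to 34.1). In the NF2 KO library the retained share was 12.2% (11 to 13.5), below the 19.3% (14.9 to 24.3) of its left-out cluster 4, at a median depth of 2446 UMIs. In neither library was the retained share thus above that of a shallow cluster, and it is not read as expression by itself. The class II level of the left-out clusters was 354 to 782 CPM for the control and 110 to 157 CPM for the other library, and these clusters also held endothelial marker RNA (7832 to 9885 CPM in the control, against 11299 CPM in the retained cells). Whether a UMI came from the cell or from free RNA was not tested.

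Cells rich in class II RNA were set apart more widely than positive cells. At 5000 UMIs, 165 of 1255 control cells (13.1%, 11.3 to 15.1) and 63 of 2612 NF2 KO cells (2.41%, 1.86 to 3.08) held at least 10 class II UMIs. The runs gave 12.5% and 13.8% in the control and 0.569% and 3.66% in the NF2 KO library, with no overlap between the libraries. Of the left-out cells deep enough, 0 of 26 in control cluster 3 reached 10, and none of 62 and 44 in clusters 4 and 10 of the NF2 KO library. In control cluster 4, 5 of 42 did (11.9%, 3.98 to 25.6), an interval that includes the share of the retained control cells. Control clusters 12 and 13 had 17 and 9 cells this deep, under the 20 asked for, and were not counted. Without thinning, cells with at least 20 class II UMIs made up 16.5% of the control and 5.79% of the NF2 KO cells and held 83.8% and 63.3% of the class II UMIs. UMIs of all 7 genes occurred together in 52 control and 20 NF2 KO cells.

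The members were often found in the same cells. In thinned control cells with an H2-Aa UMI, 87.4% also had Cd74 and 75.8% H2-Ab1, against 22.0% and 22.1% of the cells without H2-Aa. In the NF2 KO library these shares were 69.3% and 54.7% against 12.2% and 15.9%. The 42 control cells with a Ciita UMI held 11.9 UMIs of the other members on average and the 1213 cells without held 3.50. In the NF2 KO library the 29 Ciita-positive cells held 3.28 and the others 1.0. In the NF2 KO library H2-Ab1, the member found in most cells (18.0%), had the lowest share of positive cells with another member. There 46.3% (41.7 to 50.9) of H2-Ab1-positive cells had another member, against 62.7% to 85.3% of the cells positive for any other of the 7. The interval of the 29 Ciita-positive cells was wide (49.2 to 84.7). In the control the share for H2-Ab1 was 72.7% (67.9 to 77.05), which overlapped that for Cd74 at 77.8% (73.4 to 81.7). These shares depend on how common a gene is and do not rank how closely the genes go together. Among NF2 KO cells without H2-Ab1, 14.9% had another member. For cells without 1 of the other members this was 17.65% (Cd74) to 29.4% (Ciita).

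The class II level was highest in the same cluster of both libraries. The clusters were built without the 7 genes among the variable genes, and their names are given by number and leading genes. Cluster 8, led by Ubd, Cxcl10, Cxcl9 and Gbp5, genes known to respond to interferon-γ, held 8.81% of the control and 8.89% of the NF2 KO cells and 39.2% and 38.6% of the class II UMIs. The NF2 KO runs behind this were unlike, with 4.13% of the cells and 20.6% of the UMIs in run 1 and 12.1% and 42.1% in run 2, against 39.6% and 38.9% of the UMIs in the control runs. Its level was 3154 CPM (3086 to 3224) for control cells against 866 CPM (841 to 891) for NF2 KO cells, 3.64-fold lower (3.51 to 3.78). By run it was 3666 and 2803 CPM against 467 and 943 CPM. After thinning, 86.5% (79.3 to 91.9) of its control and 67.2% (60.9 to 73.1) of its NF2 KO cells were positive, and a positive cell held 18.6 and 6.51 class II UMIs. In this cluster Ciita measured 35.4 CPM (control) and 14.0 CPM (NF2 KO), and Cd74 1899 and 498 CPM.

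In the control library no other cluster passed 802 CPM, and in the NF2 KO library clusters 2 and 11 came next to cluster 8, at 387 and 390 CPM. In NF2 KO run 1 alone, cluster 2 (446 CPM, 369 to 534, in 11 cells) did not differ from cluster 8 beyond counting error. Cluster 5, led by the venular genes Ackr1, Selp and Sele with the mural gene Tagln among its leading genes, measured 802 CPM among control cells and 118 CPM among NF2 KO cells, 6.81-fold lower (6.07 to 7.64). Its control runs stood at 1324 CPM in 39 cells and 578 CPM in 28 cells, and its NF2 KO runs at 89.2 and 126 CPM, so the fold depends on the control run. Pooled over runs it was the lowest NF2 KO cluster, but in run 1 clusters 11, 1, 9 and 0 were lower (18.2 to 84.9 CPM). Cluster 1, led by the capillary genes Ramp3, Cd300lg, Ednrb and Aqp1, measured 567 and 142 CPM, 3.99-fold lower (3.71 to 4.29). Cluster 7, led by mitotic genes such as Cenpf and Birc5, measured 527.7 and 131 CPM, of which 1 control cell held 462 of 1126 UMIs, so that the control level was 322 CPM without it. Cells of cluster 7 had a median depth of 3100 UMIs in the control and 17064 UMIs in the NF2 KO library. Cluster 9, led by histone genes, Top2a and Mki67, measured 350 and 146 CPM. Only cluster 8 of the control, and clusters 8, 2 and 11 of the NF2 KO library (866, 387 and 390 CPM), lay above the range of their library's left-out clusters by more than counting error.

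The difference between the libraries was not the same in every cluster. Cluster 11, led by the type I interferon genes Rsad2 and Ifit3, had a ratio of NF2 KO over control of 1.09 (0.91 to 1.30), with 359 and 390 CPM. Its NF2 KO runs stood apart, at 18.2 CPM in 18 cells and 588 CPM in 33 cells. Cluster 2, led by Gal and Kcnj8, was mostly of the control library (638 and 30 cells) and measured 492 and 387 CPM, 1.27-fold lower (1.14 to 1.43). Cluster 0, led by F2rl1 and Chga, was mostly of the NF2 KO library (39 and 895 cells) and measured 303 and 150 CPM, 2.02-fold lower (1.72 to 2.35). By run it measured 426 and 202 CPM against 84.9 and 198 CPM, so run 2 of both libraries did not differ beyond counting error, and 1 cell held 49 of the 65 UMIs of control run 2. Neither cluster 0 nor cluster 2 had more endothelial than other markers among its leading genes (Cldn4 of epithelium in the former, Kcnj8 and Abcc9 of pericytes beside Cldn5 in the latter), so the retained cells are compared as such and not as a named cell type. With the same cluster weights in both libraries the summed level was 698 and 263 CPM, 2.65-fold lower. The difference between clusters was not tested, with 1 library per group.

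**Figure D3:**
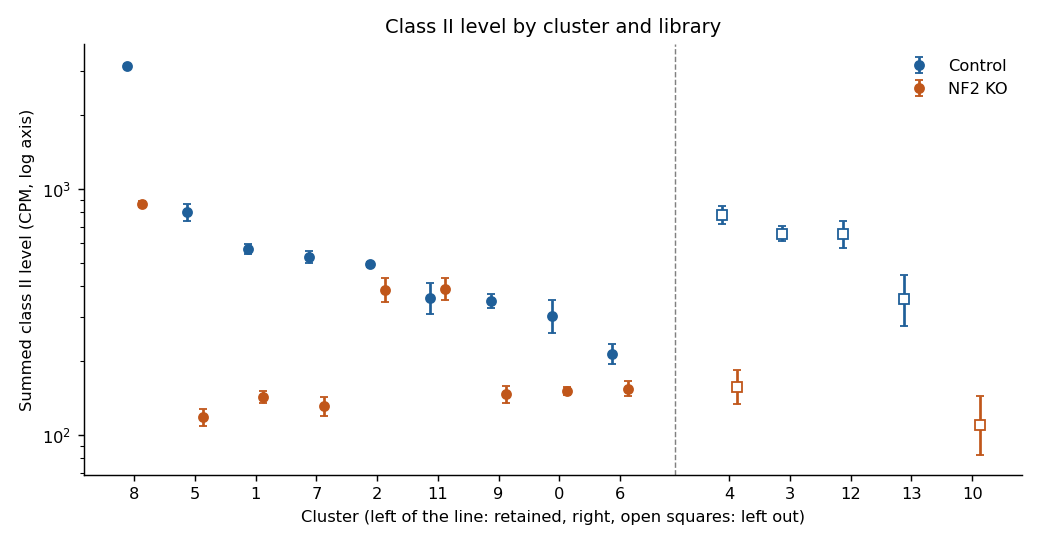
Summed class II level by cluster in CPM on a log axis, with 95% Poisson intervals; filled circles are retained clusters and open squares left-out clusters with at least 20 cells of a library. Cluster 8 stands highest in either library (3154 and 866 CPM), and cluster 11 is the retained cluster in which the NF2 KO level (390 CPM) is not below that of the control (359 CPM).

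Class II levels were higher in cells with more RNA of interferon-γ-induced genes in both libraries. The 16 genes of an interferon-γ-induced list, among them the chemokine gene Cxcl9, the GTPase genes Gbp2 and Iigp1 and the transcription factor gene Irf1, summed to 4102 CPM (control) and 4108 CPM (NF2 KO). The runs behind these sums differed, with 3615 and 4548 CPM for the control against 3007 and 4707 CPM for NF2 KO, a ratio between the NF2 KO runs of 1.57 (1.55 to 1.58). NF2 KO run 1, the lowest run in class II, was thus also the lowest in this list. Of the 14 that reached 20 CPM, 0 were lower and 0 higher by the rule of size, and their median log2 ratio was 0.14. Cxcl9 measured 1486 and 1262 CPM and Irf1 130 and 148 CPM. In cluster 8 the list summed to 13413 and 13966 CPM.

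Cells with like numbers of UMIs of this list were then set side by side, after thinning to 5000 UMIs. In cells with 0 to 4 list UMIs, 24.8% (20.3 to 29.7) of the control and 19.9% (17.0 to 23.1) of the NF2 KO cells were class II-positive, with 0.432 and 0.274 class II UMIs per cell. In cells with 5 to 9 they were 33.6% (28.2 to 39.2) and 18.4% (15.4 to 21.7), with 0.742 and 0.341 UMIs per cell. In cells with 10 to 19 list UMIs the shares were 46.3% (39.3 to 53.4) and 24.3% (20.7 to 28.2), with 2.06 and 0.517 UMIs per cell. In cells with 20 to 39 they were 69.9% (63.0 to 76.2) and 42.9% (37.9 to 48.0), with 7.47 and 1.66 UMIs per cell. In cells with 40 and above, 85.1% (79.6 to 89.6) and 62.5% (57.5 to 67.4) were positive, with 11.8 and 3.61 UMIs per cell. The UMIs per cell were higher from each range to the next in both libraries, although the NF2 KO share was not higher in the second range than in the first. The NF2 KO cells lay below the control cells of the same range by 3.99-fold (3.42 to 4.67), 4.50-fold (4.10 to 4.95) and 3.27-fold (3.06 to 3.49) in the last 3 ranges. Against all control cells, the same ranges of NF2 KO run 1 were 3.95-fold, 6.99-fold and 6.95-fold lower and those of run 2 were 4.02-fold, 3.82-fold and 2.80-fold lower, so that both runs lay below the control there. In the lowest range run 2 did not differ from the control beyond counting error (1.11-fold, 0.87 to 1.42).

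**Figure D4:**
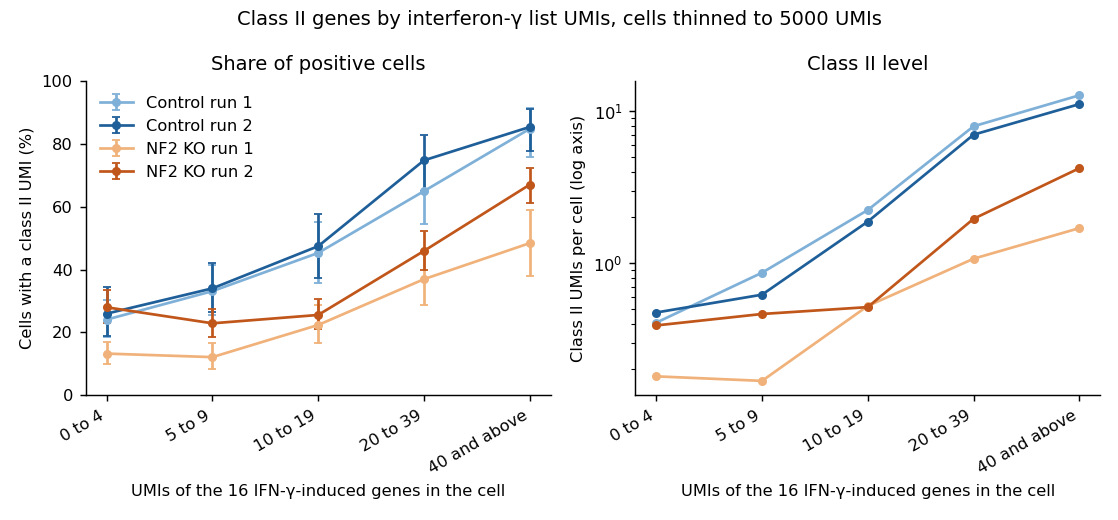
Share of class II-positive cells in percent with 95% Clopper-Pearson intervals (left) and class II UMIs per cell on a log axis (right), by the UMIs of the 16 interferon-γ-induced genes in the cell, for the 4 runs at 5000 UMIs per cell. The UMIs per cell are highest in the last range for all 4 runs, and from 10 list UMIs upward the NF2 KO runs lie below the control runs, at 3.61 against 11.8 UMIs per cell over both runs in the highest range.

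H2-Ab1 made up most of the class II RNA in cluster 6. In cluster 6, led by Vegfa, Bnip3, Slc2a1 and Egln3, genes known to respond to low oxygen, the summed class II level was the lowest of the control library (213 CPM), and the NF2 KO cells of that cluster held 154 CPM. H2-Ab1 gave 57.1% of those UMIs in the control and 74.9% in the NF2 KO library, against 14.2% to 33.4% in the other retained clusters of both libraries and 9.86% to 22.2% in the left-out clusters. Its level in cluster 6 was 122 CPM (107 to 138) for control cells against 115 CPM (106 to 125) for NF2 KO cells, a ratio of 0.95 (0.81 to 1.10). By run it was 116 and 128 CPM in the control runs against 83.7 and 128 CPM in the NF2 KO runs, and the libraries overlapped. Cd74 in the same cells measured 66.1 and 20.04 CPM, 3.30-fold lower (2.52 to 4.32), and H2-Aa had a ratio of 0.45 (0.23 to 0.87). With 4 to 38 UMIs per library, H2-Eb1 (ratio 0.996, 0.44 to 2.46), H2-DMb1 (0.86, 0.48 to 1.60) and H2-DMa (0.81, 0.22 to 3.70) were not lower beyond counting error either. No Ciita UMI was counted in the 122 control cells, which allows a level of up to 1.49 CPM, and 2 were counted in the 292 NF2 KO cells. Cluster 6 was also lowest in the interferon-γ-induced list, at 1014 CPM (control) and 1201 CPM (NF2 KO), against at least 2235 CPM in other retained clusters. Among thinned cells in the lowest 25% of that list, H2-Ab1 was found in 15.45% and Cd74 in 9.33% of the control. In the NF2 KO library these were 14.8% and 2.90%. Which of the 2 lists the make-up goes with was not tested.

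Cells were also ranked by a hypoxia marker list in place of a cluster. Among NF2 KO cells at 5000 UMIs, H2-Ab1 was found in 27.8% (24.4 to 31.4) of those in the highest 25% of 8 hypoxia genes and in 11.9% (9.78 to 14.3) of those in the lowest 25%. Cd74 went the other way, with 11.4% (9.06 to 14.1) and 16.7% (14.2 to 19.4), as did H2-Eb1 with 2.28% and 5.29%, H2-Aa with 3.19% and 6.25% and H2-DMa with 1.67% and 3.97%. H2-DMb1, with 4.86% (3.35 to 6.79) and 3.37% (2.25 to 4.83), did not. The same opposite order of H2-Ab1 and Cd74 was found along the tip list of the NF2 KO library, where H2-Ab1 was in 23.5% of the highest and 13.1% of the lowest cells and Cd74 in 12.5% and 17.6%, so it was not particular to the hypoxia list. Along the hypoxia list of the control library, H2-Ab1 was found in 34.1% and 27.2%, with intervals that overlap, and Cd74 in 26.3% and 32.3%. By UMIs, Cd74 still led the highest 25% of this list in the control, with 1282 per 1000 cells against 548 of H2-Ab1. In the NF2 KO library these were 285 and 426, so in this range H2-Ab1 led Cd74 in that library only. The lead was not particular to this range. In the NF2 KO library H2-Ab1 also led in the highest 25% of the tip list (360.5 against 304.7). It led there in the lowest 25% of the venular list too (269 against 213). In the lowest 25% of the interferon-γ-induced list it led in both libraries (189.5 against 180.8 in the control, 193 against 36.3 in NF2 KO). The list is cut from a range of UMI counts and marks no cell type. At the upper limit, 84 control and 173 NF2 KO cells lay within 1 UMI of it.

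**Figure D5:**
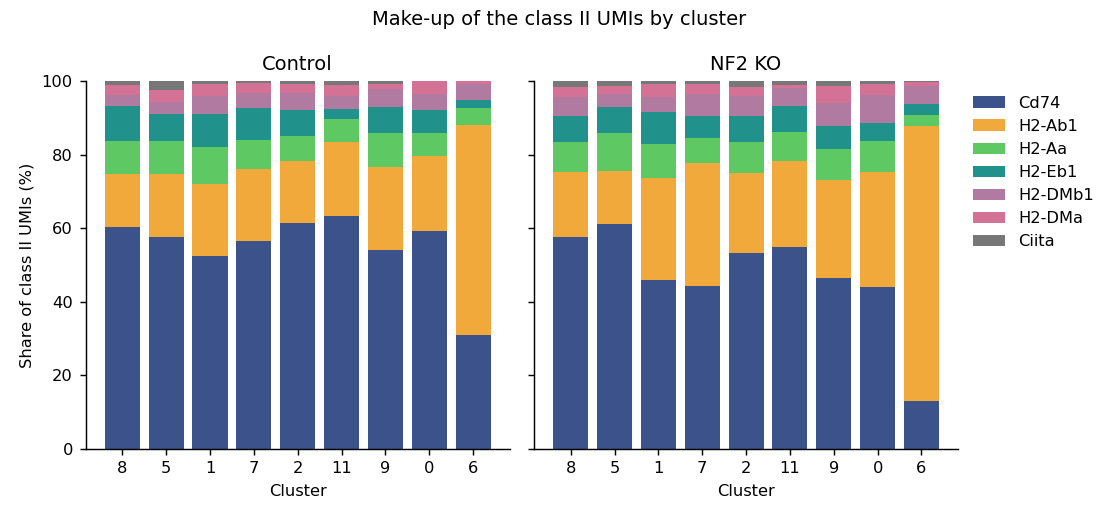
Share of each gene among the class II UMIs of each retained cluster, in percent, for the control (left) and the NF2 KO library (right). Cd74 leads in every cluster except cluster 6, where H2-Ab1 holds 57.1% and 74.9%.

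Class II levels also differed along other endothelial states. In the control, cells in the highest 25% of the venular list held 11.7 class II UMIs per positive cell and those in the lowest 25% held 5.02, with shares of 61.0% and 41.9%. In the NF2 KO library these were 4.71 and 2.17 UMIs with shares of 31.6% and 27.1%. H2-Ab1 did not share this order there, at 16.1% and 18.4% of cells, with intervals that overlap. Cluster 5, led by venular genes, was the lowest NF2 KO cluster pooled over runs (118 CPM), so list and cluster differed in that library. Positive cells high in tip genes such as Apln and Esm1 held fewer class II UMIs than those low in them. They held 3.79 against 10.5 UMIs in the control and 2.45 against 4.34 UMIs in the NF2 KO library. The tip share was lower at the high end in the control (39.8% and 54.9%) and higher in the NF2 KO library (34.1% and 26.9%). For the capillary list the UMIs per positive cell were 11.4 and 5.49 in the control and 3.95 and 2.98 in the NF2 KO library. For the arterial list they were 10.5 and 8.29 in the control and 3.35 and 3.61 in the NF2 KO library, where the shares were 35.4% and 27.2%. For the cycling list they were 5.86 and 8.63 in the control and 3.08 and 3.63 in the NF2 KO library, where the shares were 27.1% and 33.1%. The other shares of these 3 lists had intervals that overlap. In the control they were 51.5% and 47.3% (capillary), 46.2% and 49.4% (arterial) and 46.9% and 48.7% (cycling). The capillary shares of the NF2 KO library were 27.8% and 29.9%.

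Leukocyte markers, which could accompany class II RNA from other cells, were at low levels in class II-rich cells. In the cells with at least 20 class II UMIs (254 control and 159 NF2 KO), Pecam1 and Cdh5 had a UMI in 100% and Ptprc, which encodes CD45, in 3.54% and 2.52%, against 2.14% and 2.08% of all retained cells. The 13 macrophage or monocyte markers summed to 50.4 CPM in those control cells and 53.0 CPM in all, and to 40.3 and 39.4 CPM in the NF2 KO library. Of the B cell markers 4 of 6 and 3 of 6 were at 0 there, but such zeros say little, since Ms4a1 had 1 and 2 UMIs in all retained cells. Cd79a was found in 1.58% and 1.26% of the class II-rich cells, against 0.712% and 0.838% of all. Lyz2 was found in 31.9% and 15.7%, against 25.1% and 15.9%. The class II-rich cells were deeper, at a median of 21724.5 and 24789 UMIs. The dendritic marker Flt3 had 1 UMI in the class II-rich control cells and none in those of the NF2 KO library. Of the 49 leukocyte markers listed, 3 reached 20 CPM in either library, namely Fscn1, S100a9 and S100a8. Among the control clusters the 5 general leukocyte markers stood highest in cluster 5 (60.5 CPM) and lowest in cluster 8 (13.6 CPM), and the part of such RNA in the cluster 5 level was not tested.

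Listed genes that work with the 7 were measured too. None passed the rule of size in either direction, and at 5.36% lower and 2.83% higher over all genes, lists of this length would hold few calls. Of the lysosomal genes, Ctsl, which cuts the invariant chain in some cell types, measured 961.6 and 863 CPM and 0 of 4 that reached 20 CPM passed. Ctss, below that level, had a ratio of 0.67 (5.66 and 3.82 CPM). Of the genes of the factors on class II promoters, 0 of 3 passed, with Rfxap at 42.1 and 39.5 CPM, Nfyb at 41.4 and 42.4 CPM, and Creb1 at a ratio of 0.90. Of the interferon-γ signalling genes 0 of 7 passed, among them the receptor genes Ifngr1 (129 and 158 CPM) and Ifngr2 (121 and 101 CPM), and Jak1 and Jak2. Of the class I genes 0 of 7 passed: H2-K1 measured 2491 and 2461 CPM, B2m 3378 and 3396 CPM and Nlrc5, the class I counterpart of Ciita, 19.6 and 24.1 CPM. Cd40, a costimulatory receptor gene below 20 CPM, measured 6.14 and 3.40 CPM, a ratio of 0.55. Cd274, which encodes the checkpoint ligand PD-L1, measured 24.8 and 31.4 CPM, while Cd80 and Cd86, the costimulatory genes that professional presenting cells use, had 5 UMIs each in the control and 13 and 9 in the NF2 KO library. March8, of a ligase known to remove class II from the surface, measured 22.4 and 23.6 CPM. The further class II genes H2-Oa, H2-Ob, H2-Eb2 and H2-DMb2 had at most 8 UMIs in a library.

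The genes most like the members in pattern were found over 31 sums of a run and cluster with at least 20 retained cells, by Pearson's r of log2(CPM + 10) with the summed class II level. As a description only, since the sums share libraries, the 10 highest were Upp1 (0.85), Snx10 (0.83), Serping1 (0.76), Eif4e3 (0.76), H2-D1 (0.76), Sdcbp (0.75), Clec2d (0.75), Timp3 (0.75), Ido1 (0.74) and Tpm3-rs7 (0.74). Of the members themselves that reached 20 CPM, r ran from 0.87 for H2-Ab1 to 0.97 for H2-Aa. Ido1, which encodes a tryptophan-degrading enzyme, measured 29.0 CPM (control) and 5.20 CPM (NF2 KO), a ratio of 0.18 (0.16 to 0.21), and in cluster 8 it measured 164 and 24.3 CPM. Upp1, of uridine phosphorylase, had a ratio of 0.75 (0.74 to 0.77) and the class I gene H2-D1 one of 0.94 (0.93 to 0.95). All 10 had a ratio below 1, from 0.18 for Ido1 and 0.44 for Tpm3-rs7 to 0.94 for H2-D1, and since the 31 sums come from both libraries, the likeness holds part of the difference between the libraries.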

How the data were processed

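Single-cell transcriptomes of CD31-sorted tumour endothelial cells were taken from 1 control and 1 NF2 KO library. The submitters' processing notes list mm10, Seurat 3.1.1 and Cell Ranger 3.0.0 but no settings. The authors deposited natural log values, which equal ln(1 + 10000 × UMIs / total) of each cell, and 100% of the values gave whole UMI counts within 0.01. The authors' tables hold only cells with over 500 genes and under 10% mitochondrial UMIs.

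Cells with at least 1000 UMIs were kept (2572 control, 3312 NF2 KO). An automatic doublet threshold marked 0.0778% and 0%, which was taken as failed, so the 5% of cells per library with the top doublet scores were dropped (129 and 166). Clustering used scanpy 1.11.5 (30 components, 2000 variable genes without the 7 members, 15 neighbours, Leiden resolution 0.8). Clusters under 0.333 of their library's median depth and without endothelial markers in their 10 leading genes, or led by markers of another cell type (at least 2 more than endothelial ones), were left out.

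CPM has exact Poisson intervals, ratios exact conditional intervals and shares Clopper-Pearson intervals, all at 95%, for counting error only. UMIs count molecules at the 3′ end, so no length correction was made. A count of 0 allows a level of up to 3 counts. With 1 library per group no p-value was computed. The intervals, the thinning and the rule of size were tested on simulated data. The members, lists, rules for named genes and alternatives were chosen with earlier results of these data known; the named genes are the 7 members, listed pathway genes, the 10 genes most alike in pattern and the clusters with the highest and lowest level. Alternatives to filters, doublets, thinning, scaling, runs and clustering are given in the closing section. Promoter windows and genes matched by symbol (RefSeq, GRCm38.p6; GENCODE M21).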

Additional observations from a re-analysis of the deposited data

How the results depend on the processing

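Under all alternatives run, the summed level, the share of positive cells, the UMIs per positive cell and each of the 7 members kept a ratio of NF2 KO over control below 1, and the members' ratios ran from 0.101 to 0.616 over 91 values. The NF2 KO runs moved the results most. The ratio of the summed level was 0.317 with both runs, 0.409 without NF2 KO run 1 and 0.148 without run 2, and the share's ratio of 0.632 became 0.766 and 0.433, and that of UMIs per positive cell of 0.431 became 0.483 and 0.293. Leaving out a control run kept these within 0.311 to 0.323, 0.584 to 0.684 and 0.416 to 0.445.

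With clusters led by a marker of another cell type left out (clusters 0 and 5), the 3 ratios were 0.409, 0.745 and 0.494. With cells holding leukocyte marker UMIs left out, the summed level gave 0.305 and the UMIs per positive cell 0.4003. Weighting every cell equally gave 0.275 and keeping doublets 0.324 for the summed level. Further settings were chosen after seeing the data: without cluster 8 the summed level gave 0.324 and UMIs per positive cell 0.470, and without clusters 0 and 2 the summed level gave 0.274.

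The share depended on depth, since its ratio was 0.483 at 2000 UMIs, 0.734 at 10000 and 0.755 unthinned, and 0.484 where 2 UMIs were asked for. UMIs per positive cell gave 0.570 at 2000 UMIs and 0.504 from 2 UMIs. The count of 5 members lower ran from 4 to 6. The count of all genes lower, 313 (5.36%) in the main setting, ran from 262 to 516. At a minimum of 5 CPM, 6 of 6 members and 5.57% of 9260 genes were lower. The highest cluster level over both libraries was 1616 CPM, 802 CPM at Leiden resolution 0.4 and 1648 CPM at 1.2. Median-of-ratios scaling shifted all genes by -0.03 on the log2 scale. No paired analysis was possible because each group has 1 library. With 1 library per group, differences between the libraries and between the conditions cannot be told apart, and at 5000 UMIs genes near 1 UMI per positive cell give no level beyond their share.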

Other observations

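At 1000 UMIs per cell, left-out cluster 12 of the control library, led by the leukocyte genes Lyz2, Plac8 and Ptprc, had a class II UMI in 43.2% (32.2 to 54.7) of 81 cells, and its macrophage or monocyte markers summed to 1147 CPM. In cluster 8 at the same depth the share was 69.9% (61.4 to 77.4) in the control and 37.3% (31.2 to 43.7) in the NF2 KO library.

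Serping1, Snx10 and Timp3, which were among the genes most like the class II pattern over clusters, had ratios of NF2 KO over control of 0.575, 0.630 and 0.569.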
